A study of Mus musculus with 6 samples.

Results

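The genes described here are the 5 NF-kB subunits and 5 genes that restrain or tune NF-kB, measured by RNA-seq in mouse primary hepatocytes with and without LRG1 protein. They were taken by symbol from the deposited gene counts: Nfkb1, Nfkb2, Rela, Relb and Rel for the subunits, Nfkbia, Nfkbiz and Bcl3 for proteins of the IkB family, and Tnfaip3 and Birc3 for regulators that act through ubiquitin. All 10 were among the 22609 gene rows of each library, and all 10 were among the 12301 genes with enough counts to be tested. Primary hepatocytes are liver parenchymal cells kept in culture after isolation; the donors here were wild-type C57BL/6 males aged 4 months. One group of 3 samples was given PBS, phosphate-buffered saline, as the control, and the other group of 3 was given 20 µg/mL LRG1, leucine-rich alpha-2-glycoprotein 1, a secreted glycoprotein, and both groups were harvested after 16 h. The labels do not describe how the protein was made, nor whether replicates were separate animals or dishes, so the spread behind every p-value may be technical. Gene counts per library totalled 18625748 to 20064003 in 5 libraries and 23036332 in LRG1 replicate 2, the deepest.

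NF-kB is a family of dimeric transcription factors that waits in the cytoplasm and enters the nucleus when inflammatory receptors are engaged. In the canonical branch, the IkB kinase complex marks inhibitors such as IkB-alpha for destruction, which frees dimers of p50 (from Nfkb1) with RelA or c-Rel. In the non-canonical branch, receptors such as CD40 stabilise the kinase NIK, which leads to processing of the Nfkb2 product to p52, the partner of RelB. Several of these genes, Nfkbia and Tnfaip3 among them, are themselves NF-kB targets, so that the pathway limits its own activity. In liver, NF-kB is known for the inflammatory response of hepatocytes and for protecting them from death signalled through TNF.

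The promoter sequences are shown because several of these genes are known targets of the factor they encode or restrain. RefSeq windows (build GRCm38.p6) were at hand for 7 of the 10 genes, all but Nfkb1, Relb and Nfkbiz, with 10 windows in all. Every window was searched over the 250 bases before the transcription start, on both strands, for a loose NF-kB site of 3 G, any 5 bases and 2 C (GGGNNNNNCC), and for a stricter form, GGGNNTTTCC, which is a subset of the loose one. The loose letters were found in all 10 windows, but also in 45.8% of all 32851 promoter windows. The strict letters were found in 5 of the 10 windows, belonging to 4 genes, and in 1.41% of all windows. The stretches below are the last 100 bases before the start in the window farthest upstream for those 4 genes, which hold the strict match in capitals, and for Bcl3, the gene with the lowest fold change, whose window held no strict match. A match on the opposite strand reads here as its reverse complement, GGAAANNCCC.
Nfkb2 (chr19:46304637-46304736, + strand): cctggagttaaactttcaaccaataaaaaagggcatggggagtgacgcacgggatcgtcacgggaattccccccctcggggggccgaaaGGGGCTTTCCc
Rel (chr11:23770970-23771069, - strand): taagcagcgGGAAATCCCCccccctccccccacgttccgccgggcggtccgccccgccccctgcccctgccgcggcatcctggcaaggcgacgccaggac
Nfkbia (chr12:55492648-55492747, - strand): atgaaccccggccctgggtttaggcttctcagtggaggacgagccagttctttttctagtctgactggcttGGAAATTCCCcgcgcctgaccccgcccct
Tnfaip3 (chr10:19015411-19015510, - strand): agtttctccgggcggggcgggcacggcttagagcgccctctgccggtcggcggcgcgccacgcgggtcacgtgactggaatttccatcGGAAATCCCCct
Bcl3 (chr7:19822756-19822855, - strand): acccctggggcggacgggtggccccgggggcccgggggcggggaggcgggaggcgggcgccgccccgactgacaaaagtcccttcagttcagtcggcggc

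Counted back from the start, the capitals lie at bases 11 to 2 in Nfkb2, 91 to 82 in Rel, 29 to 20 in Nfkbia and 12 to 3 in Tnfaip3. A match is a description of the letters, not evidence of binding, and its absence says only that these letters are not in this window.

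With LRG1 the mRNA of the NF-kB genes shifted by small amounts and in both directions. Of the 10, 6 were higher (Nfkb1, Nfkb2, Rel, Nfkbiz, Tnfaip3 and Birc3), 2 were lower (Nfkbia and Bcl3), and Rela and Relb did not pass the threshold, an adjusted p of 0.05 in edgeR's quasi-likelihood test across all tested genes. This count is read against a broad response: 51.4% of all tested genes passed, 25.5% higher and 25.8% lower. The 3 LRG1 values lay entirely above or below the 3 PBS values for 9 of the 10 genes, all but Rela, against 57.6% of all tested genes. Bcl3, at 1.52-fold lower, was the only one of the 10 that passed with a difference of at least 1.5-fold, a mark reached by 18.1% of all tested genes. The median absolute log2 fold change was 0.30 over the 10 genes and 0.20 over all tested genes. The 4 genes whose promoter held the strict match did not move one way: Nfkb2, Rel and Tnfaip3 were higher and Nfkbia was lower.

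**Figure D1:**
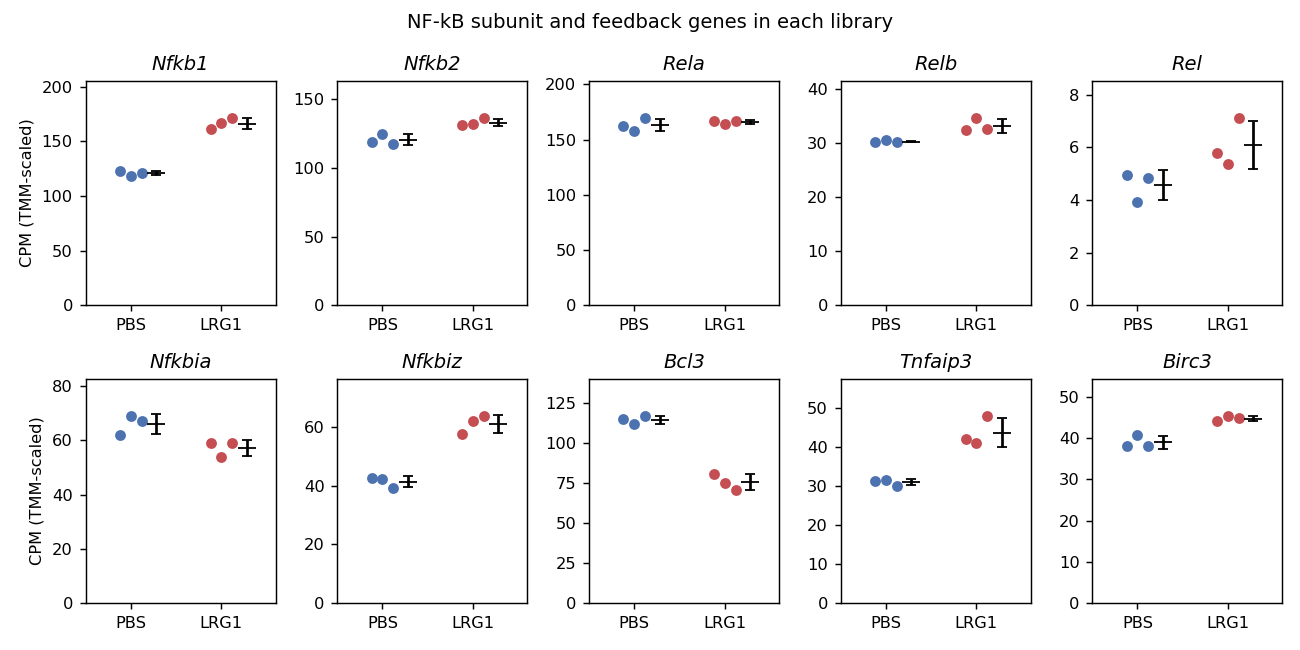
Level of each gene in CPM (counts scaled to the same total in each library, with TMM factors) in the 3 PBS (blue) and 3 LRG1 (red) libraries, with the mean and SD in black; each panel starts at 0. The groups are apart in every panel but that of Rela, and Nfkbia and Bcl3 are the panels in which the red points lie below the blue ones.

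Among the subunits, Nfkb1 had the smallest p. It encodes p105, the precursor of p50 and also an IkB-like inhibitor in its unprocessed form. Its level was 123, 119 and 121 CPM in PBS replicates 1 to 3 and 161, 167 and 171 CPM in LRG1 replicates 1 to 3. The lowest LRG1 value was 1.31 times the highest PBS value, a wide gap beside replicate coefficients of variation of 1.66 and 3.06%. This 1.38-fold difference (log2 fold change 0.46, SE 0.040) had an adjusted p of 1.1e-09.

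Nfkb2, which encodes p100, the precursor of p52 and an inhibitor of RelB, differed less. The PBS libraries had 119, 125 and 118 CPM and the LRG1 libraries 131, 132 and 136 CPM. The groups did not overlap, but the lowest LRG1 library was only 1.05 times the highest PBS library. Its fold change on the log2 scale was 0.14 (SE 0.041, adjusted p = 0.0057). Exons of Nfkb2 share 299 bases with Psd and 531 bases with a non-coding transcript, both on the opposite strand (GENCODE M21). The sources used here do not say whether counting used the strand, so reads in those bases are uncertain, although Psd itself had at most 1 count in any library.

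Rela encodes RelA (p65), the main transactivating subunit of the canonical branch. Its values were 162, 158 and 169 CPM with PBS and 167, 164 and 167 CPM with LRG1, so the LRG1 libraries lay within the PBS range. On the log2 scale the difference was 0.023, with a 95% interval from -0.058 to 0.11 (adjusted p = 0.65).

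Relb encodes the partner of p52. Its values of 30.2, 30.5 and 30.2 CPM with PBS compared with 32.4, 34.6 and 32.6 CPM with LRG1. The groups did not overlap, yet the gene did not pass over all tested genes (log2 fold change 0.13, 95% interval 0.0053 to 0.26, adjusted p = 0.076). It passed when libraries were scaled by total counts alone (adjusted p = 0.047), and the alternatives together gave adjusted p-values between 0.047 and 0.26.

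Rel encodes c-Rel, the subunit best known from lymphocytes and macrophages, and it was by far the scarcest. Only 98, 73 and 91 reads were counted in the PBS libraries and 116, 124 and 141 in the LRG1 libraries. On the scaled level these were 4.96, 3.93 and 4.83 CPM against 5.78, 5.35 and 7.10 CPM, so LRG1 replicate 3 stood highest and PBS replicate 2 lowest. The log2 fold change of 0.40 had the widest error of the 10 (SE 0.15, adjusted p = 0.024). The call rested on those libraries and on the tool: the adjusted p was 0.12 without PBS replicate 2 (log2 fold change 0.31), 0.17 without LRG1 replicate 3 (0.28) and 0.062 with DESeq2, within a range of 0.013 to 0.17 over the alternatives.

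Because c-Rel is abundant in leukocytes, their markers are given beside it. Of 11 lymphocyte and pan-leukocyte markers, 8 had no count in any library, Cd3e and Nkg7 among them, and the summed level of the list was 0.531 to 0.962 CPM with PBS and 0.820 to 1.05 CPM with LRG1. Of 12 macrophage markers, 8 were tested, and 4 of these did not pass. With LRG1, 2 were higher and 2 lower, 25% each way beside 25.5% and 25.8% of all tested genes. Itgam, one of the higher ones, had 11, 3 and 5 counts with PBS and entered the test through its LRG1 counts of 12, 21 and 23. Each of the 12 had a count in at least 1 library. Their summed level was 225 to 270 CPM with PBS and 185 to 210 CPM with LRG1. Of this, Cd68, one of the lower ones, made 236 ± 24.0 and 184 ± 13.1 CPM. Cd5l was also lower, at 3.96 ± 0.517 and 1.93 ± 0.253 CPM. Marco was higher, at 1.25 ± 0.223 and 2.02 ± 0.456 CPM. Clec4f, which is specific to Kupffer cells, had 0.746 ± 0.293 and 0.936 ± 0.147 CPM and did not pass. Vsig4 was not tested, with 16, 9 and 14 counts with PBS and 5, 5 and 5 with LRG1. In bulk RNA, fewer cells of a type and less RNA per cell cannot be told apart, and the part of these cells in the value of Rel, or of any other gene here, was not tested.

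Divided by transcript length, the subunit mRNAs differed in share. Rela made up 42.3 ± 1.10% (SD, n = 3) of the 5 subunit mRNAs with PBS and 38.3 ± 0.573% with LRG1. Nfkb1 made up 20.6 ± 0.312% and 25.3 ± 0.436%, Nfkb2 27.0 ± 1.07% and 26.5 ± 0.181%, Relb 9.65 ± 0.130% and 9.41 ± 0.377%, and Rel 0.431 ± 0.0505% and 0.509 ± 0.0702%. The shares of Nfkb1 and Rela did not overlap between the groups, while those of Nfkb2, Relb and Rel did. The 5 shares are parts of a whole, so a lower share is not by itself a lower level. The level of Rela was 60.1 ± 2.08 CPM per kb with PBS and 61.1 ± 0.623 with LRG1. These shares depend on 1 transcript length per gene, so they compare groups more safely than genes.

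**Figure D2:**
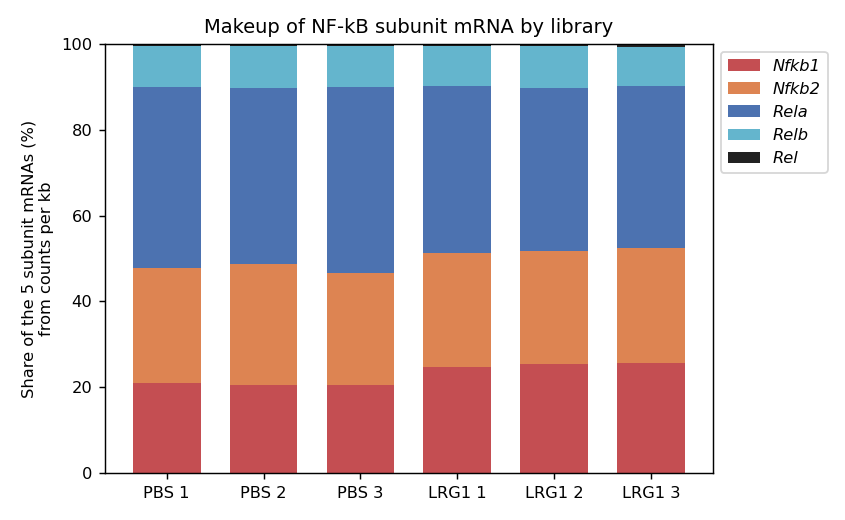
Share of each subunit in the summed mRNA of the 5 subunits (y axis, %, from counts per kb of transcript) in each of the 6 libraries. The Nfkb1 segment is 20.4 to 21.0% with PBS and 24.8 to 25.6% with LRG1, and the Rela segment 41.2 to 43.4% with PBS and 37.9 to 38.9% with LRG1. A smaller segment is not by itself a lower level.

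Ratios of counts within a library need no library size. There were 0.972, 1.05 and 0.972 Nfkb2 reads per Nfkb1 read with PBS and 0.816, 0.792 and 0.797 with LRG1. On the log2 scale the ratio was lower by a difference of -0.32 (-0.0023 ± 0.068 with PBS and -0.32 ± 0.023 with LRG1, SD, n = 3). The log2 ratio of Relb to Rela was higher by 0.11 (-2.43 ± 0.057 and -2.32 ± 0.067), a difference that was 0.068 without LRG1 replicate 2, and that of the inhibitor Nfkbia to Rela was lower, with a difference of -0.23 (-1.31 ± 0.098 and -1.54 ± 0.061). Each of these 3 ratios had a p of 0.10 in a two-sided exact permutation test (0.10 also after Benjamini-Hochberg adjustment over the 3), which is the smallest p that 3 against 3 samples can give. All 3 ratios were separated between the groups, but that of Relb to Rela only barely. Its highest PBS value was 0.193 Relb reads per Rela read (replicate 2), and its lowest LRG1 value 0.194 (replicate 1).

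The genes of the IkB family split. Nfkbia encodes IkB-alpha, which holds p50-RelA dimers in the cytoplasm and is remade soon after NF-kB activation. It fell from 62.0, 68.9 and 67.1 CPM with PBS to 59.1, 53.9 and 58.9 CPM with LRG1. The groups were close, the lowest PBS value being 1.05 times the highest LRG1 value. It was 1.15-fold lower (log2 fold change -0.21, SE 0.054, adjusted p = 0.0027).

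Nfkbiz encodes IkB-zeta, a nuclear IkB protein that works with p50 as a coactivator of secondary response genes. Its 42.7, 42.4 and 39.4 CPM with PBS compared with 57.8, 62.1 and 63.9 CPM with LRG1. Every LRG1 library was at least 1.35 times the highest PBS library, the widest gap of the genes that rose. At 1.48-fold it was the highest of the 10 (log2 fold change 0.56, SE 0.056, adjusted p = 9.1e-09).

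Bcl3 encodes a nuclear IkB protein that binds homodimers of p50 or p52 and can either activate or repress their targets. It fell from 115, 112 and 117 CPM with PBS to 80.7, 75.1 and 70.6 CPM with LRG1. No LRG1 library came near the PBS range, whose lowest value was 1.38 times the highest LRG1 value. The log2 fold change was -0.60 (SE 0.048, adjusted p = 2.5e-10), the lowest of the 10, and larger in size than those of 81.6% of all tested genes. Its exons share 161 bases with an antisense transcript.

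Both ubiquitin regulators were higher. Tnfaip3 encodes A20, which edits ubiquitin chains on signalling adaptors and shuts down the response to TNF. It rose from 31.3, 31.5 and 30.0 CPM with PBS to 42.1, 40.9 and 47.8 CPM with LRG1, with LRG1 replicate 3 above the other libraries. The difference was 1.41-fold (log2 fold change 0.49, SE 0.065, adjusted p = 8.6e-07). Birc3 encodes cIAP2, a ubiquitin ligase that protects cells from TNF-induced death and helps degrade NIK. Its 38.1, 40.8 and 38.2 CPM with PBS compared with 44.1, 45.3 and 44.8 CPM with LRG1. The groups lay close, the lowest LRG1 value being 1.08 times the highest PBS value, in a 1.15-fold difference (log2 fold change 0.20, SE 0.056, adjusted p = 0.0045).

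**Figure D3:**
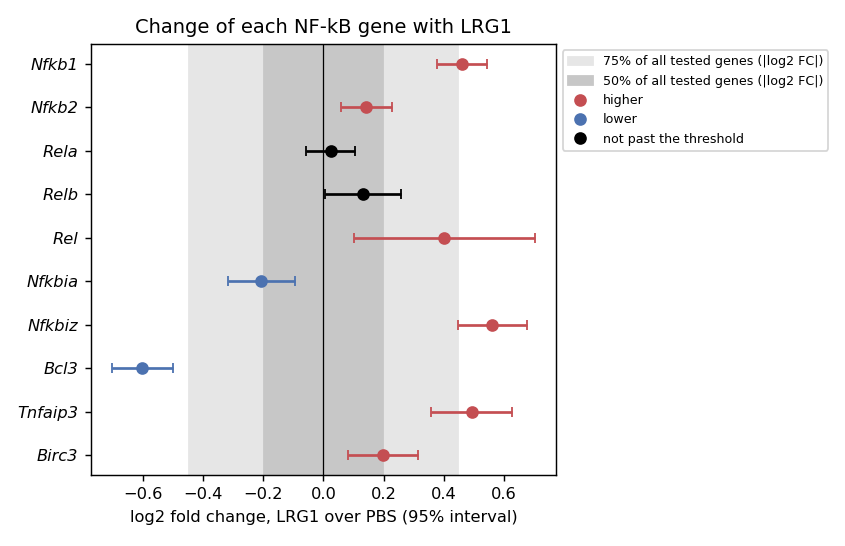
Log2 fold change of each gene, LRG1 over PBS, with its 95% interval (x axis); the grey bands hold the 50% and 75% of all tested genes with the smallest changes, up to 0.20 and 0.45 in either direction. Nfkb1, Nfkbiz and Tnfaip3 lie beyond the outer band on the right and Bcl3 on the left, while Rela sits at 0.023.

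Levels per kb of transcript put the genes in order. With PBS, Bcl3 (61.9 ± 1.42 CPM per kb, SD, n = 3) and Rela (60.1 ± 2.08) came first and overlapped, followed by Nfkbia (41.8 ± 2.26) and Nfkb2 (38.4 ± 1.24), which overlapped too. Nfkb1 (29.3 ± 0.486), Birc3 (14.6 ± 0.583), Relb (13.7 ± 0.0789), Nfkbiz (10.1 ± 0.449), Tnfaip3 (6.998 ± 0.190) and Rel (0.613 ± 0.0747) followed without overlap between neighbours. With LRG1, Rela stood alone at the top (61.1 ± 0.623 CPM per kb). Nfkb2 (42.4 ± 0.844), Bcl3 (40.8 ± 2.73) and Nfkb1 (40.4 ± 1.23) then overlapped from one to the next, ahead of Nfkbia (36.3 ± 1.86). Relb (15.0 ± 0.553) and Nfkbiz (14.9 ± 0.759) overlapped below Birc3 (16.8 ± 0.240), and Tnfaip3 (9.86 ± 0.833) and Rel (0.814 ± 0.122) remained the lowest levels.

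The other genes of the pathway were followed in 7 lists, from IkB relatives to target genes, which hold 94 genes besides those above. Of these, 79 were tested: 34 were higher with LRG1, 24 were lower and 21 did not pass. The called share, 73.4%, stands beside 51.4% of all tested genes. By list it was 33.3% for other IkB genes, 72.7% for kinases and for receptors, 82.4% for adaptors and 54.5% for negative regulators. For ligands it was 66.7% and for target genes 80.8%. The median log2 fold change was 0.062 for the 79 genes and 0.0093 for all tested genes.

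**Figure D4:**
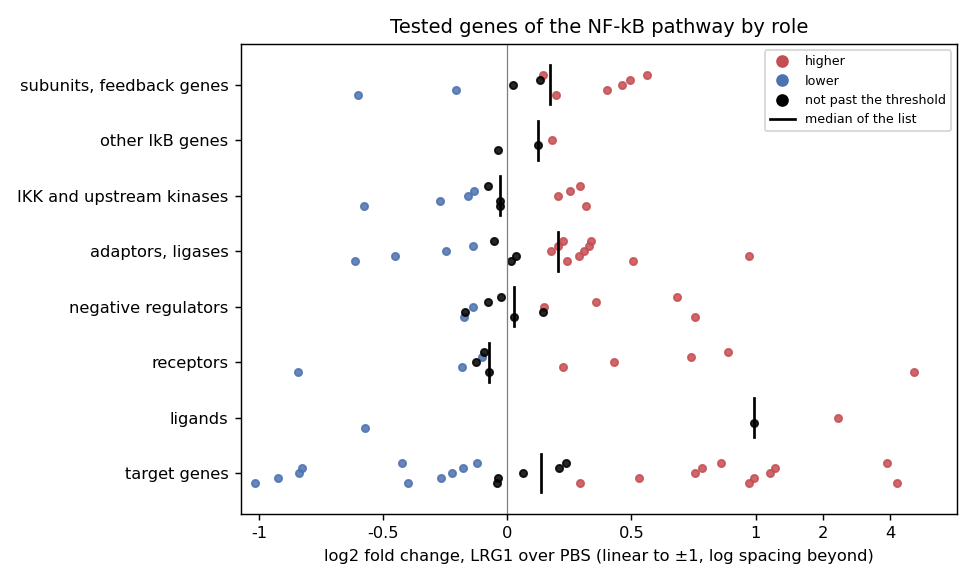
Log2 fold change, LRG1 over PBS, of every tested gene by role (x axis, linear between -1 and 1 and log-spaced beyond); red points were higher, blue lower and black not past the threshold, and bars mark list medians. The adaptor list has 10 red and 4 blue points, the target list 11 and 10, and the isolated red point of the receptor list is Cd40.

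Of the other 3 IkB genes, 1 was higher. Nfkbib, which encodes IkB-beta, rose from 35.6 ± 1.67 to 40.4 ± 2.03 CPM (log2 fold change 0.18, adjusted p = 0.017). Nfkbie (12.6 ± 0.646 and 12.2 ± 0.478 CPM) and Nfkbid (0.684 ± 0.109 and 0.741 ± 0.125 CPM) did not pass and overlapped.

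The IkB kinase subunits, the kinases upstream and the adaptors of TAK1 moved in both directions, with 4 of 11 genes higher, 4 lower and 3 that did not pass (median log2 fold change -0.030). The largest difference was that of Map3k8, which encodes TPL2, a kinase held by the p105 product of Nfkb1: it was 1.49-fold lower, at 5.38 ± 0.379 and 3.61 ± 0.355 CPM (log2 fold change -0.57, adjusted p = 0.0018). Within the IkB kinase complex, the scaffold gene Ikbkg fell from 298 ± 2.64 to 267 ± 6.73 CPM and the catalytic subunit gene Ikbkb from 101 ± 4.03 to 91.9 ± 1.18 CPM, 1.12-fold and 1.10-fold lower. The other catalytic subunit gene, Chuk, had 92.6 ± 2.89 and 87.7 ± 4.05 CPM and did not pass. Map3k14, which encodes NIK, the kinase of the non-canonical branch, was 1.25-fold higher, at 23.3 ± 1.16 and 29.0 ± 1.34 CPM (adjusted p = 0.00046). Map3k7, which encodes TAK1, was 1.19-fold higher and Ikbke, an IKK-related kinase gene, 1.21-fold lower.

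Receptor-proximal adaptors and ligases were mostly higher, 10 of 17, with 4 lower, 3 that did not pass and a median log2 fold change of 0.20. Of all tested genes, 25.5% were higher and 25.8% lower. Traf1, among the higher adaptors, entered the test only through its LRG1 counts. Tirap, the bridging adaptor of Toll-like receptors, was 1.42-fold higher, at 57.2 ± 1.30 and 81.4 ± 3.54 CPM, and Myd88, the adaptor it recruits, was 1.26-fold higher. Traf3, which delivers NIK for degradation, rose from 83.0 ± 0.890 to 105 ± 1.78 CPM and Traf2, its partner, from 37.0 ± 0.569 to 45.3 ± 1.70 CPM. Birc2, which encodes cIAP1, a close relative of the Birc3 product, fell from 33.9 ± 1.06 to 28.6 ± 2.59 CPM (log2 fold change -0.25, adjusted p = 0.0044), so the related ligase genes Birc2 and Birc3 were called in opposite directions. Traf5 was 1.53-fold lower.

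Among 11 further negative regulators that were tested, 4 rose, 2 fell and 5 did not pass. Tnip1 encodes ABIN1, a ubiquitin-binding partner of A20. It rose from 78.6 ± 2.35 to 133 ± 1.62 CPM, a 1.69-fold difference (log2 fold change 0.76, SE 0.042, adjusted p = 3.5e-13). Zc3h12a, an RNase gene that limits inflammatory mRNAs, was 1.61-fold higher and Tnip2, another A20 partner gene, 1.28-fold higher, while the deubiquitinase gene Otud7b was 1.13-fold lower. Cyld, a deubiquitinase gene that opposes IKK activation, had 81.1 ± 1.24 and 76.8 ± 3.56 CPM and did not pass (adjusted p = 0.17).

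Of 11 tested receptors, 5 rose, 3 fell and 3 did not pass. Cd40, one of the receptors that engage the non-canonical branch, rose from 1.65 ± 0.339 to 56.6 ± 1.79 CPM. Of the others of that branch, Ltbr, the lymphotoxin beta receptor gene, fell from 177 ± 4.43 to 165 ± 3.46 CPM (adjusted p = 0.031), Tnfrsf12a, the TWEAK receptor gene, had 439.5 ± 18.97 and 417 ± 11.9 CPM and did not pass, and Tnfrsf11a and Tnfrsf13c had too few counts to be tested. Tnfrsf1b, the type II TNF receptor gene, was 1.85-fold higher, from 59.8 ± 2.38 to 111 ± 1.45 CPM, and Il1rap, the accessory chain of the interleukin-1 receptor, 1.67-fold higher. Tlr5, the flagellin receptor gene, was 1.79-fold lower. The ligands were scarce: only 3 of 10 had enough counts to be tested, and Tnfsf11 had no count in any library. Tnfsf12, which encodes TWEAK, fell from 14.9 ± 0.524 to 9.998 ± 0.152 CPM. Il1a had 4, 3 and 4 counts with PBS and 22, 18 and 23 with LRG1 and was called higher (0.192 ± 0.0268 and 1.01 ± 0.204 CPM), and Il1b had 0.315 ± 0.192 and 0.634 ± 0.0798 CPM and did not pass. Il1a and Il1b entered the test only through their LRG1 counts, as did Csf2 and Traf1 in the other lists, so the calls of Il1a, Csf2 and Traf1 as higher are no independent support for a direction.

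Other textbook target genes had no common direction, with 11 of 26 higher, 10 lower and 5 that did not pass (median log2 fold change 0.14). The 11 include Csf2 and Traf1, which entered the test only through their LRG1 counts. Mmp9, a matrix metalloprotease gene, rose from 3.13 ± 1.08 to 61.3 ± 6.10 CPM, and Ier3, an early response gene, from 99.8 ± 4.02 to 199 ± 5.07 CPM. Tnip1, Traf1 and Nfkbie, described above in other lists, also count among the targets. Complement C3, made in bulk by hepatocytes, fell from 4401 ± 186 to 2482 ± 16.5 CPM.

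The genes whose 6 values lay closest to those of one of the 10 were sought among genes whose average log2 CPM reached 1, by the Euclidean distance between log2 CPM profiles centred on the PBS mean. Closest to Nfkbiz, which had the highest fold change of the 10, were Osmr (distance 0.056), Mast4 (0.076) and Ccnj (0.095). Osmr, the oncostatin M receptor gene, went from 30.3 ± 1.54 to 44.8 ± 1.53 CPM. Closest to Bcl3, which had the lowest, were Fam59a (0.061), Hpn (0.065) and Depdc7 (0.084), and Hpn, which encodes the hepatocyte protease hepsin, went from 328 ± 3.81 to 214 ± 13.3 CPM. With 6 libraries in 2 groups these distances describe mainly the size of the treatment difference.

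The labelled cell type was checked against its markers. Of all tested genes, 25.8% were lower with LRG1 and 25.5% higher. Of the 9 hepatocyte markers tested, 4 were lower with LRG1 and none higher. Per kb of transcript they ranged with PBS from 6.54 ± 0.507 CPM for Cps1, a urea cycle enzyme gene, to 9457 ± 332 CPM for Alb, the albumin gene. Alb did not pass, at 19235 ± 676 and 18555 ± 375 CPM, while Cps1 fell 4.32-fold, from 36.3 ± 2.81 to 8.44 ± 1.58 CPM. The other lower markers were Fgb (1.72-fold), Apoa1 (1.54-fold) and Hnf4a (1.23-fold). In the endothelial list 3 of 7 tested markers were lower and none higher. The lower ones were Stab2 (6.54 ± 0.305 and 3.21 ± 0.190 CPM), Lyve1 (3.23 ± 0.966 and 1.45 ± 0.192 CPM) and Oit3 (6.16 ± 0.412 and 4.73 ± 0.368 CPM). The summed level of the list was 46.3 to 48.2 CPM with PBS and 38.8 to 42.2 CPM with LRG1. Cdh5, the highest of the list, had 16.1 ± 0.447 and 17.0 ± 1.22 CPM and did not pass. In the stellate list 1 of 6 was lower, and in the cholangiocyte list Sox9 was higher and Krt19 lower. Spp1, the osteopontin gene in the cholangiocyte list, had 4437 ± 103 and 4442 ± 176 CPM and did not pass; its 2944 ± 68.3 CPM per kb with PBS lay above every hepatocyte marker but Alb.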

How the data were processed

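The authors deposited 1 file of unnormalized read counts by gene symbol for each library, made with bcl2fastq, TopHat2 and HTSeq on the mouse build mm9, per the submitters' processing notes. Versions, the annotation and the strand setting of the counting: not given in the sources used here. Per the labels' protocols the libraries were poly(A)-selected, strand-marked and read from one end at 50 nt. The 5 summary rows of each file were left out. The row for reads with several alignments made 58.2 to 59.3% of all row totals. Whether it counts a read once or once per alignment is not given, so this may not be a share of reads.

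From these counts, edgeR 4.0.16 (R 4.3.3) was run on all genes with filterByExpr (minimum count 10), TMM scaling and the quasi-likelihood test on treatment alone, 3 against 3 libraries, adjusted by Benjamini-Hochberg over 12301 tested genes. The kept genes held 99.95% of the gene counts. CPM were computed from the counts with the TMM-scaled sizes of the tested genes. The script was tested on simulated counts. Transcript lengths are those of the longest GENCODE M21 transcript matched to a curated RefSeq mRNA, used as lengths only. No replicate pair agreed within sampling noise (chi-square per degree of freedom 2.84 to 4.02). Alternatives were other scalings, filters, DESeq2 1.42.0, limma-voom (limma 3.58.1), a replicate block and leaving out each library.

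The member genes and the lists were chosen with earlier results of these data known, so no list is independent evidence. Named genes were mainly the 10 members, up to 4 genes per list with the smallest p, and the genes whose products bind or modify a member's product directly. Others are named outside this rule, such as Clec4f, Alb, Tnfrsf12a, Ticam1, Irak1, Cxcl2 and Ccl5. In the cell marker lists, not every gene that the rule picks is named. Birc2 and Birc3 are paralogs. Reads with several alignments were tallied in a summary row that was left out, so reads aligned to both genes were counted for neither.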

Additional observations from a re-analysis of the deposited data

How the results depend on the processing

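Over 14 alternative settings each, Nfkb1, Nfkb2, Nfkbia, Nfkbiz, Bcl3, Tnfaip3 and Birc3 kept their direction and their call, with the highest adjusted p of 0.032 for Nfkb2, and Rela did not pass in any (adjusted p 0.37 to 0.99). Relb passed with total-count scaling, and Rel lost its call in 3 settings, as given with their values. Between 5 and 7 members were called higher and 2 lower in every setting. Pathway genes called higher ran from 31 to 35 and lower from 18 to 26. No result reversed, and the 3 count ratios kept their sign without each library in turn. Same-numbered samples of the groups did not deviate together (correlations -0.12, -0.014 and -0.12), so the numbers were not taken as pairs. With a replicate block, 6 members were higher and 2 lower, and 2906 and 2984 of all tested genes, against 3140 and 3177 without it. Paired by number, the 3 ratios had an exact sign-flip p of 0.25, the smallest that 3 pairs allow. Of the members, Rel had the fewest reads, 73 to 141 per library, and 15 of the 94 pathway genes had too few counts to be tested. Whether depth or low expression lay behind this was not tested.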

Other observations

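The chemokine and adhesion genes among the NF-kB targets are given here as a group chosen after their values were seen. Of all tested genes, 25.8% were lower with LRG1 and 25.5% higher. Of the 7 chemokine genes in the list, 4 were lower with LRG1, 2 were higher and 1 did not pass. Among those lower, 3 encode neutrophil attractants: Cxcl1 went from 52.2 ± 5.87 to 38.9 ± 2.01 CPM, Cxcl2 from 1.84 ± 0.330 to 0.963 ± 0.0944 CPM and Cxcl5 from 1.25 ± 0.415 to 0.604 ± 0.0805 CPM (edgeR adjusted p = 1.5e-05, 0.0030 and 0.0077, SD, n = 3). Ccl20, which attracts CCR6-bearing cells, was lower too, at 1.82 ± 0.336 and 1.02 ± 0.492 CPM (edgeR adjusted p = 0.017). Its LRG1 replicate 3, at 1.56 CPM, lay close to the lowest PBS value, 1.59 CPM. Counts were few for Ccl20 (33, 41 and 30 with PBS, 12, 21 and 31 with LRG1). They were also few for Cxcl2 (31, 41 and 33, then 20, 24 and 17) and Cxcl5 (19, 32 and 20, then 14, 13 and 11). Cxcl10 and Ccl2, which attract lymphocytes and monocytes, were higher, at 11.8 ± 1.53 and 27.6 ± 3.12 CPM and at 240 ± 4.18 and 346 ± 20.2 CPM. Ccl5, which also attracts lymphocytes and monocytes, had 3.99 ± 0.147 and 4.72 ± 0.544 CPM and did not pass (edgeR adjusted p = 0.19). Of the adhesion molecule genes, Vcam1 was 1.72-fold higher (17.4 ± 0.599 and 30.0 ± 2.23 CPM) and Icam1 1.20-fold lower (118 ± 4.54 and 98.4 ± 3.44 CPM).

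In the adaptor list, Ticam1, which encodes the Toll-like receptor adaptor TRIF, was lower, at 26.8 ± 2.91 and 19.6 ± 0.640 CPM (log2 fold change -0.45, edgeR adjusted p = 4.1e-05). Of the kinase genes Irak1, Irak2 and Irak4, which act after MyD88, Irak4 was higher (26.0 ± 1.31 and 30.4 ± 1.33 CPM), while Irak1 (192 ± 4.33 and 185 ± 2.93 CPM) and Irak2 (54.8 ± 2.18 and 55.5 ± 3.05 CPM) did not pass.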
